A study of Mus musculus with 6 samples.

Results

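The genes described here are 8 transcription factors of the macrophage lineage, Spi1, Irf5, Irf8, Maf, Nr1h3, Id3, Zeb2 and Runx1, chosen by name from the 54682 rows of a liver gene count table; each of the 8 symbols mapped to 1 row. Poly(A) RNA of whole liver was sequenced from 6 mice. The WT group held 3 wild-type mice, whose strain is not named in the labels. The CD44 KO group held 3 mice with the Cd44-/- genotype (B6.Cg-Cd44tm1Hbg/J), an allele not restricted to any cell type. All 6 mice had the same ethanol exposure, 10 days on the Lieber-DeCarli diet, in which ethanol made up 5% of the volume, and a gavage of 5 g/kg on day 11 that preceded the end of the experiment by 9 hours. The contrast is therefore between genotypes within ethanol-exposed liver. The question of the study, as its title states it, is the role of CD44 of myeloid cells in alcohol-related liver disease.

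These factors act at successive steps of macrophage development. PU.1, the ETS-family product of Spi1, opens myeloid enhancers and is needed for the whole lineage. IRF8 partners with PU.1 in monocyte and dendritic cell progenitors, RUNX1 acts earlier in blood formation, and IRF5 drives inflammatory cytokine genes in mature cells. ID3, ZEB2, MAF and LXRα, the oxysterol receptor encoded by Nr1h3, have roles in the identity or function of tissue macrophages, including the Kupffer cells that reside in liver. Several are not restricted to macrophages: LXRα also acts in hepatocytes, and MAF, ID3 and ZEB2 are made in endothelial and other cells. In whole liver, fewer cells of a type and less RNA per cell cannot be told apart.

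The libraries held 15493009 to 19346623 counts. Cd44 itself, the check of the labels, had 175 to 590 counts in the wild-type libraries and 0 or 1 in the knockout libraries, so no library went against its genotype. Markers fixed for macrophages in general (12 genes, among them Csf1r, Adgre1 and Cd68) summed to 690, 339 and 776 CPM in wild-type 1, 2 and 3 and to 299, 324 and 271 CPM in knockout 1, 2 and 3. CPM are counts scaled to a common library size of 1e6 after TMM normalisation. The livers thus contained macrophage RNA in every library, and wild-type 2 lay close to the knockout range, apart from the other wild-type mice. Hepatocyte markers summed to 81500 to 99600 CPM in the wild-type livers and to 88100 to 111000 CPM in those of the knockout.

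Taken per kilobase of exon, the factors spanned a wide range of levels. Over the 6 livers Nr1h3 had a mean of 37.9 RPKM (31.7 to 43.4) and Id3 of 35.2 RPKM (29.4 to 45.7), and their ranges overlapped. A middle group followed, with Maf at 6.37 RPKM (4.79 to 8.16), Irf5 at 4.85 RPKM (3.56 to 7.45) and Spi1 at 4.51 RPKM (2.32 to 8.58), whose ranges overlapped one another. Irf8 stood at 1.28 RPKM (0.661 to 1.81) and Zeb2 at 0.862 RPKM (0.554 to 1.20), again with overlap. Runx1 was lowest at 0.178 RPKM (0.0828 to 0.362), from 15 to 80 counts per library. Exon length is the union of all annotated exons, which places genes with long alternative exons such as Zeb2 lower than a single transcript would.

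The knockout mean was below the wild-type mean for 7 of the 8 factors and above it for 1, Nr1h3. Their median log2 fold change was −0.65, against −0.01 for all 14145 genes tested. All 8 passed the filter on low counts. By edgeR's quasi-likelihood test with Benjamini-Hochberg adjustment over all genes, 0 of the 8 factors passed an adjusted p of 0.05, where 2 genes, or 0.0141%, passed overall. Below an unadjusted p of 0.05 lay 5 of the 8, all lower in the knockout, against 7.59% of all genes in that direction, and 0 were higher, against 5.22%. DESeq2 called 1 factor, Spi1, where it called 1.96% of genes, 1.3% as lower and 0.666% as higher in the knockout. The limma-voom fit called 0 factors and 0 genes, with 4 factors under an unadjusted p of 0.05. The share of all genes under that p was not computed for limma-voom. The wild-type and knockout values did not overlap for 4 factors, Spi1, Irf5, Irf8 and Zeb2, with the knockout below in each, as for 9.42% of genes tested; 0 factors had the knockout above, as for 8.81%. Without wild-type 2 the groups were separate for 6 factors, with Id3 and Runx1 added, as for 17.6% of genes (an alternative chosen after seeing the data).

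**Figure D1:**
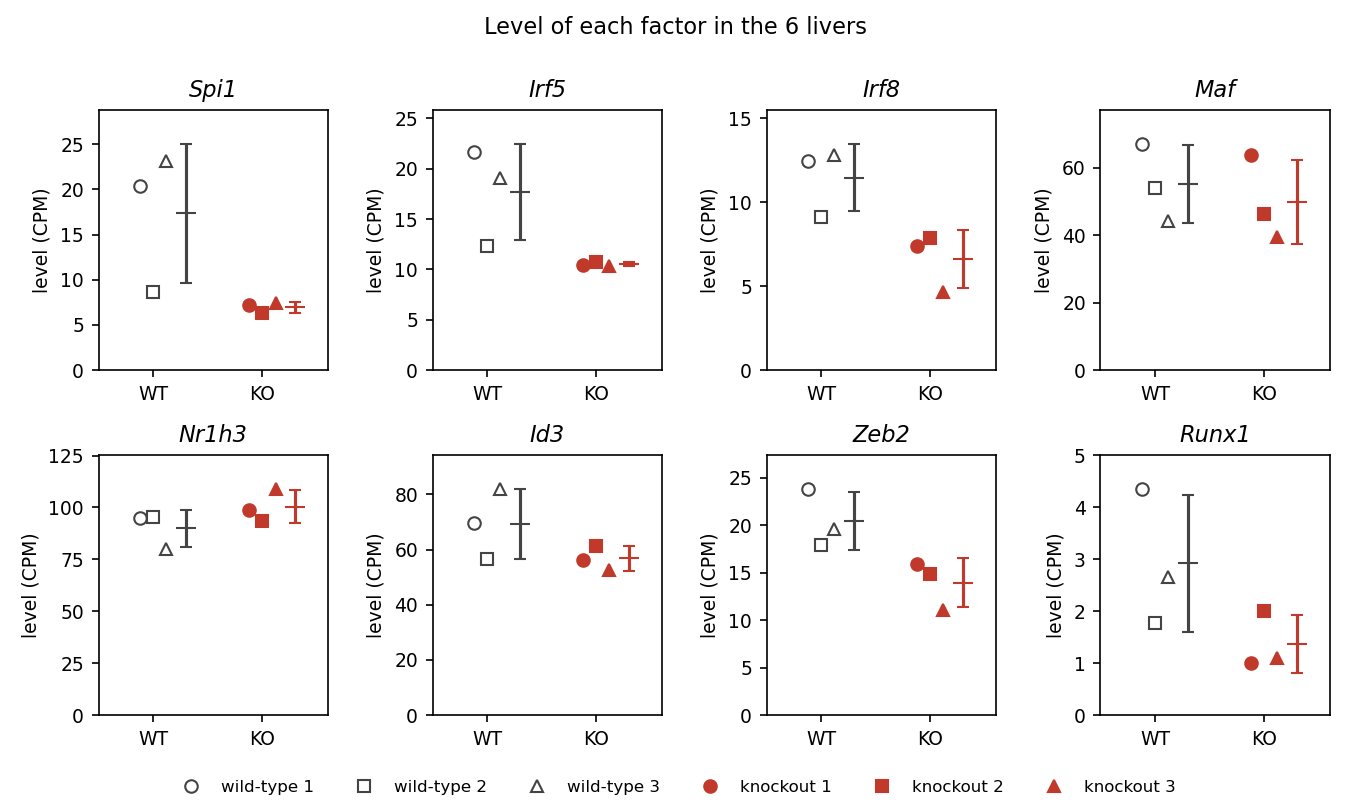
Level of the 8 factors in each liver, in CPM on a linear axis from 0; open black symbols are wild-type and filled red symbols knockout mice, with mean and SD (n = 3) beside them. Spi1, Irf5, Irf8 and Zeb2 have all knockout values under the lowest wild-type value, while Maf, Nr1h3, Id3 and Runx1 overlap.

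Spi1 (ENSMUSG00000002111; GRCm38, chromosome 2, 91082390 to 91115756, plus strand) had the largest fold difference of the 8 with all libraries, but Runx1 exceeded it without wild-type 3 (−1.14 against −1.07 on the log2 scale) and without knockout 2 (−1.48 against −1.25), and their 95% intervals overlapped. It had 374, 132 and 454 counts in wild-type 1, 2 and 3, or 20.3, 8.62 and 23.1 CPM, and 108, 125 and 108 counts in knockout 1, 2 and 3, or 7.17, 6.26 and 7.41 CPM. The knockout mice were tightly grouped, and wild-type 2 lay just above them, far under the other wild-type mice. The knockout mean was 40.0% of the wild-type mean (6.95 ± 0.604 against 17.4 ± 7.70 CPM, SD, n = 3 each), a log2 fold change of −1.33 ± 0.34 (SE; adjusted p = 0.220 in edgeR and 0.0168 in DESeq2). Without wild-type 2 the value was −1.64 and it passed in edgeR (adjusted p = 0.0139). Over all alternatives tried the adjusted p ran from 0.0139 to 0.698.

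Irf5 and Irf8, the interferon regulatory factors, also had separate groups. Irf5 (ENSMUSG00000029771; chromosome 6, 29526625 to 29541871, plus strand) stood at 21.7, 12.3 and 19.1 CPM in wild-type 1, 2 and 3 and at 10.4, 10.8 and 10.4 CPM in the knockout mice. The 3 knockout livers were nearly equal, and wild-type 2 was again the nearest to them. The log2 fold change was −0.75 ± 0.21 (adjusted p = 0.237 in edgeR, 0.0960 in DESeq2). Leaving out wild-type 2 gave −0.94 with an adjusted p of 0.0430 in edgeR, in a range of 0.0430 to 0.711 over the alternatives. Irf5 is uncertain in part, since 14.1% of its exon bases overlap Tnpo3, a nuclear import receptor gene on the opposite strand at 51.1 CPM in the wild-type and 55.1 CPM in the knockout mean, and no strand-specific step is described.

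Irf8 (ENSMUSG00000041515; chromosome 8, 120736358 to 120756694, plus strand) had 12.5, 9.14 and 12.8 CPM in wild-type 1, 2 and 3 and 7.37, 7.86 and 4.66 CPM in knockout mice. Here the gap between the groups was small, and knockout 3 was the lowest liver. The log2 fold change of −0.79 ± 0.24 did not pass (adjusted p = 0.259 in edgeR, 0.128 in DESeq2), and it was −0.58 without knockout 3. Its 95% interval, −1.35 to −0.23, overlapped that of Irf5, −1.24 to −0.26.

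Zeb2 (ENSMUSG00000026872; chromosome 2, 44983632 to 45117395, minus strand), a zinc-finger E-box repressor, stood at 23.8, 18.0 and 19.6 CPM in the wild-type livers, beside 15.9, 14.8 and 11.0 CPM in the knockout. Its groups were separate, and wild-type 2 was the lowest wild-type liver here as well. The log2 fold change was −0.55 ± 0.18 (adjusted p = 0.285 in edgeR). Runx1 (ENSMUSG00000022952; chromosome 16, 92601466 to 92826149, minus strand) was covered by 80, 27 and 52 counts in wild-type 1, 2 and 3, beside 15, 40 and 16 counts in knockout 1, 2 and 3, or 4.35, 1.76 and 2.65 CPM against 0.996, 2.00 and 1.10 CPM. The groups overlapped, because knockout 2 exceeded wild-type 2. The log2 fold change was −1.07 ± 0.43 (95% interval −2.06 to −0.08, adjusted p = 0.359 in edgeR), and −0.67 without wild-type 1.

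To show the sequence at the start of factors whose groups did not overlap, promoter windows were taken from RefSeq (GRCm38.p6), which gave 12 start sites for 6 of the 8 factors. No window was available for Spi1 or Maf. The 250 bases before the most upstream start of Irf5 (chr6:29526375-29526624, plus strand), Irf8 (chr8:120736108-120736357, plus strand) and Zeb2 (chr2:45117443-45117692, minus strand) are printed 5′ to 3′, with matches to any motif searched in capitals. This Zeb2 start lies outside the gene coordinates given above, and the bases just after it occur in no GENCODE transcript of Zeb2.
Irf5: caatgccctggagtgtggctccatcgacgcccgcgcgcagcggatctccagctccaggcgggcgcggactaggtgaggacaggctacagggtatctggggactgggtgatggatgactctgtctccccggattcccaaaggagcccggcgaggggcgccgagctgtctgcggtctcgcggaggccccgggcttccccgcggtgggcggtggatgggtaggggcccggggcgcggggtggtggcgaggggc
Irf8: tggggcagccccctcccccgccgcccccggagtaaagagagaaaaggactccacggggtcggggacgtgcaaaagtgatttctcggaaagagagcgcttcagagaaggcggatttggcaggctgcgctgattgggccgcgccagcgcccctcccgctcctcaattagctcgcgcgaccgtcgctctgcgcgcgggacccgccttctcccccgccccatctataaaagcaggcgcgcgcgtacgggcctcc
Zeb2: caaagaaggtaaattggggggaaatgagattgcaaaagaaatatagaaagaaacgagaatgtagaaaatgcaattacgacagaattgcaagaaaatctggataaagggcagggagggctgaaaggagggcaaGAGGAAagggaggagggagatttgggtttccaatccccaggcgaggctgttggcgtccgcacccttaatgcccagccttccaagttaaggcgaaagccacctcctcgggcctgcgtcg
The capitals in Zeb2 are the PU.1 core GAGGAA, 118 to 113 bases before the start. That core was searched on both strands along with the RUNX site TGTGGT, the interferon response element (GAAA, any 2 bases, GAAA), the ETS-IRF composite element (GGAA, any 2 bases, GAAA), the ZEB E-box CACCTG, the MAF half-site TGCTGA and the LXR direct repeat (AGGTCA, any 4 bases, AGGTCA); the interferon and composite elements can overlap each other and the PU.1 core. The PU.1 core lay in 6 of the 12 windows, from 3 genes, Zeb2, Id3 and Runx1, and in 23.3% of 32851 windows of the same length in the table; 2 of the 4 Zeb2 windows overlap and share 1 match. The ZEB E-box lay in 3 windows, 1 each of Irf8, Nr1h3 and Runx1, against 17.2% of all windows, and the MAF half-site in 1, of Irf8, against 16.1%. The RUNX site, the interferon response element, the composite element and the LXR repeat matched 0 of the 12 windows, against 14.0%, 2.98%, 2.30% and 0.0152% of all windows.

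Nr1h3, Maf and Id3 had the smallest differences of the 8 and overlapped between genotypes. Nr1h3 (ENSMUSG00000002108; chromosome 2, 91184061 to 91202834, minus strand) was at 94.9, 95.5 and 79.8 CPM in the wild-type livers, beside 98.7, 93.7 and 109 CPM in the knockout. Wild-type 1 and 2 were nearly equal and wild-type 3 was the lowest of all 6 livers. The log2 fold change was 0.16 ± 0.12 with a 95% interval of −0.13 to 0.44 (adjusted p = 0.665 in edgeR), an interval that leaves out a difference of the size seen for Spi1, and the value was 0.08 without wild-type 3. Maf (ENSMUSG00000055435; chromosome 8, 115682942 to 115707794, minus strand) was at 67.2, 54.1 and 44.1 CPM against 63.9, 46.3 and 39.5 CPM, a log2 fold change of −0.14 ± 0.22 (95% interval −0.64 to 0.35, adjusted p = 0.845 in edgeR). Its sign changed with the libraries used: 0.02 without wild-type 1 and 0.01 without knockout 3. Id3 (ENSMUSG00000007872; chromosome 4, 136143497 to 136145755, plus strand), an inhibitor of E proteins that lacks a DNA-binding region of its own, was at 69.8, 56.5 and 81.8 CPM against 56.4, 61.4 and 52.7 CPM. For Id3, wild-type 2 lay within the knockout values while the other wild-type mice were above them, and the log2 fold change was −0.29 ± 0.15 (95% interval −0.64 to 0.06, adjusted p = 0.491 in edgeR) and −0.15 without wild-type 3.

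**Figure D2:**
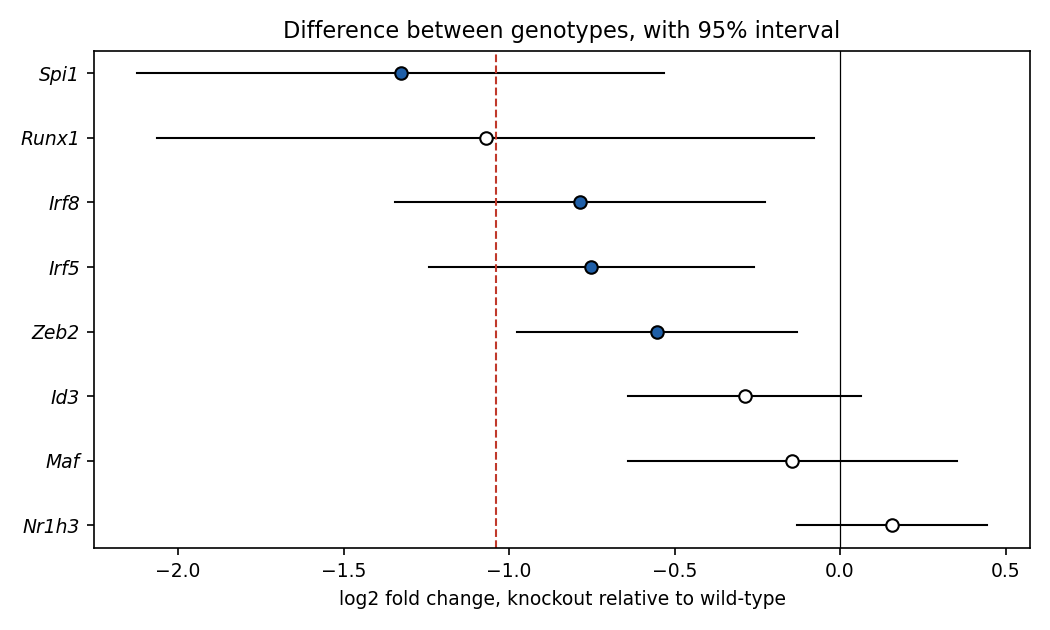
Log2 fold change of each factor, knockout relative to wild-type (edgeR, n = 3 per genotype), with its 95% interval; filled points are factors whose groups did not overlap, and the dashed line is the median of 12 macrophage marker genes, −1.04. The intervals of Spi1, Irf5, Irf8 and Runx1 reach this line, and those of Zeb2, Id3, Maf and Nr1h3 do not.

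The macrophage markers were lower in the knockout livers (12 of 12 below an unadjusted p of 0.05, 7 called by DESeq2, 0 by edgeR). Of all genes, 7.59% were lower below that unadjusted p in edgeR, and DESeq2 called 1.3% as lower. Each factor was therefore also set against the summed CPM of these markers in the same liver. The marker sum differed by −0.93 on the log2 scale (602 ± 232 against 298 ± 26.6 CPM, exact permutation p = 0.1, two-sided). With 3 against 3 livers this is the smallest p the test allows, so none of the 8 ratios computed could pass. The ratios of 6 factors, Maf among them, overlapped between genotypes: the difference in log2 ratio, knockout minus wild-type, was −0.27 for Spi1 (exact permutation p = 0.2), 0.22 for Irf5, 0.12 for Irf8, 0.37 for Zeb2 and −0.14 for Runx1, with exact permutation p values of 0.3, 0.9, 0.3 and 0.7. The size of these differences depended on single libraries. Without wild-type 3 they were 0.07 for Irf5, −0.02 for Irf8, 0.12 for Zeb2 and −0.39 for Runx1, and without knockout 2 that of Spi1 was −0.14. For Nr1h3 the log2 ratio was −2.86, −1.83 and −3.28 in wild-type 1, 2 and 3 and −1.60, −1.79 and −1.31 in knockout 1, 2 and 3. Every knockout value was above every wild-type value, by 1.09 in the mean, though wild-type 2 lay only just under knockout 2 (exact permutation p = 0.1). Id3 had the same order of groups, at −3.31, −2.59 and −3.25 against −2.41, −2.40 and −2.36, a difference of 0.66 (exact permutation p = 0.1). Because the marker sum was lower in the knockout, a factor with equal levels in both genotypes has a higher ratio there. How large a share of all genes had ratios separate in this way was not computed. The log2 fold changes of Nr1h3 and Id3 themselves were 0.16 and −0.29, with overlapping groups. Maf had a difference of 0.78 with overlapping groups (exact permutation p = 0.3), and of 0.40 without wild-type 3. Without wild-type 2 the differences of Zeb2, Irf5 and Irf8 were larger, at 0.65, 0.35 and 0.34.

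**Figure D3:**
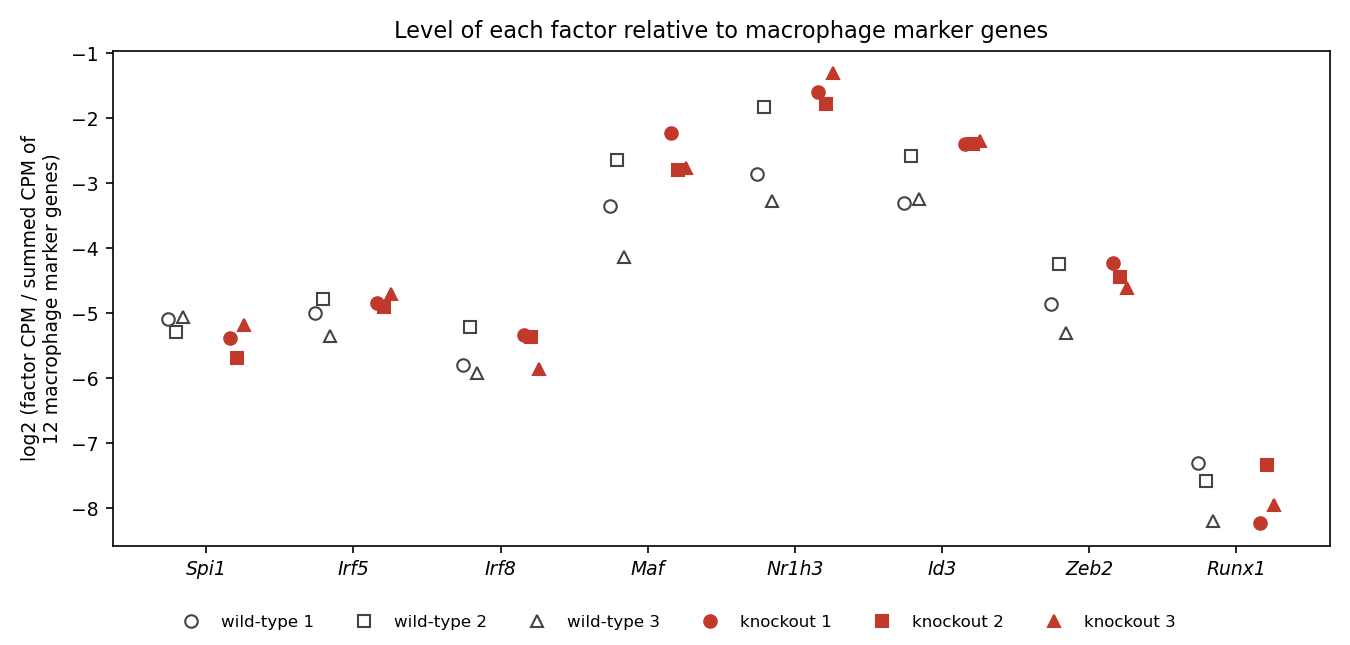
Log2 ratio of each factor's CPM to the summed CPM of 12 macrophage marker genes in the same liver; open black symbols are wild-type and filled red symbols knockout mice. Nr1h3 and Id3 have all knockout values above all wild-type values, by mean differences of 1.09 and 0.66, while the other 6 factors overlap. The marker sum was itself lower in the knockout, so a factor with equal levels in both genotypes has a higher ratio there. The share of all genes with ratios separate in this way was not computed.

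The factors also differed in their profile over the 6 livers. Likeness was measured as the root mean square difference of log2 CPM profiles, each centred on its own mean, and it is given as a description. The closest pairs were Irf8 with Zeb2 (0.18), Irf5 with Zeb2 (0.22) and Irf5 with Irf8 (0.24). The most distant pair was Spi1 with Nr1h3 (0.82), then Spi1 with Maf (0.73). Spi1 lay at 0.91 and 1.09 above its mean in wild-type 1 and 3 and at −0.28 in wild-type 2, beside −0.71 to −0.49 in the knockout mice. The median of the macrophage markers followed a similar course, at 0.71, −0.18 and 0.90 in wild-type 1, 2 and 3 and −0.59 to −0.33 in the knockout mice. Maf ran differently, at 0.38, 0.07 and −0.22 in wild-type 1, 2 and 3 and 0.31, −0.15 and −0.38 in knockout 1, 2 and 3. Sinusoidal endothelial markers (11 genes, such as Stab2 and Kdr) had medians of 0.545, 0.015 and −0.456 and of 0.25, −0.04 and −0.27 in the same livers, and their part in the level of Maf was not tested.

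**Figure D4:**
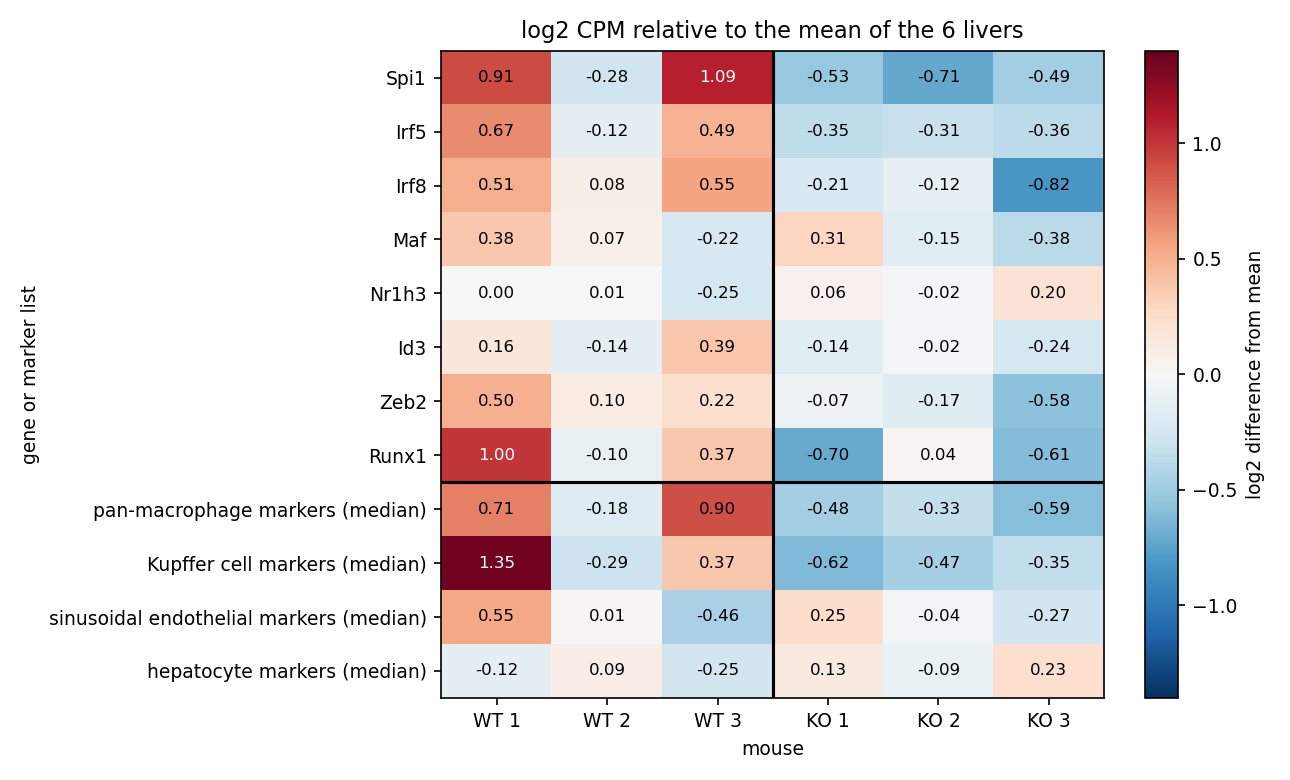
Log2 CPM of each factor in each liver relative to its mean over the 6 livers, with the median of 4 marker lists below the line; red is above and blue below the mean. Wild-type 1 and 3 are high for Spi1, Irf5, Irf8, Runx1 and the macrophage markers, wild-type 2 is near or below the mean, and Nr1h3 varies least.

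Among 11485 other protein-coding genes of sufficient level, those nearest in profile to Spi1 were Tagln2, an actin-binding protein gene (difference 0.12), and Ccl6, a myeloid chemokine gene (0.12). For Irf5, Tmem132a was among the nearest (0.07). Irf8 was nearest to Sparc, a matrix glycoprotein gene (0.07), and Slc28a2, a nucleoside transporter gene (0.08). Zeb2 was nearest to Adcy3 (0.06) and to the collagen chaperone gene Serpinh1 (0.07), Runx1 to Sla (0.10) and Renbp (0.13), and Maf to Cyp4b1 and Zbtb46 (0.04 each). Nr1h3 was nearest to Stau1 (0.02) and to Ndufa8, a respiratory complex I gene (0.03), and Id3 to Tpra1 (0.02) and Prr13 (0.04). With 6 livers and this many genes, close matches are found for any profile.

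Spi1 and Nr1h3 lie 68.3 kb apart on chromosome 2 and 11.7 and 11.6 Mb from Cd44, and Zeb2 lies 57.7 Mb from it. The log2 ratio of Spi1 to Nr1h3, a pair chosen after their values were seen, was −2.22, −3.47 and −1.79 in wild-type 1, 2 and 3 and −3.78, −3.90 and −3.88 in knockout 1, 2 and 3. All knockout ratios were below all wild-type ratios, by 1.36 in the mean (exact permutation p = 0.1, the smallest that 3 against 3 livers allow). The groups were already separate for Spi1 alone and overlapped for Nr1h3, so the ratio adds no separate evidence. Of 18 other tested genes within 0.5 Mb of Spi1, 11 were lower in mean (median log2 fold change −0.04), beside 51.1% of all genes. Below an unadjusted p of 0.05 lay 1, Madd, which lies between both factors (−0.45 ± 0.15, adjusted p = 0.281 in edgeR). That unadjusted p was reached, with the knockout lower, by 7.59% of all genes in edgeR.

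Other transcription factors of the myeloid lineage were mixed. Of 35 tested, 24 were lower in mean (median log2 fold change −0.17); 5 were lower and 3 higher below an unadjusted p of 0.05, beside 7.59% and 5.22% of all genes, 0 passed in edgeR over all genes, and DESeq2 called 1, as lower, beside 1.3% of all genes. That gene was Ikzf1, the lymphoid and myeloid regulator Ikaros, at 6.14 ± 0.618 against 2.60 ± 0.416 CPM (log2 fold change −1.23 ± 0.23, adjusted p = 0.217 in edgeR and 0.00668 in DESeq2). Tfec, a factor related to MITF, had 3.56 ± 1.43 against 1.45 ± 0.606 CPM (−1.31 ± 0.41, adjusted p = 0.267 in edgeR).

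Relatives and binding partners of the 8 factors were divided in direction. Of 30 tested, 15 were lower and 15 higher in mean (median −0.00). Below an unadjusted p of 0.05 lay 3 lower and 2 higher, beside 7.59% and 5.22% of all genes, and 0 passed in edgeR or in DESeq2. Rxrg, a partner of LXRα, had 6.92 ± 0.620 against 10.7 ± 0.954 CPM (0.63 ± 0.17), Irf9, the DNA-binding part of the type I interferon complex, 34.5 ± 9.86 against 60.4 ± 11.96 CPM (0.81 ± 0.23), and the ETS gene Elf4 5.45 ± 1.02 against 2.80 ± 0.700 CPM (−0.95 ± 0.27). Their adjusted p values in edgeR ran from 0.226 to 0.237. This list shares 5 genes with the myeloid factors, and 2.28% of the exon bases of Irf9 overlap Rnf31 on the same strand.

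Known targets of the factors, here and in the paragraphs that follow, are given beside all genes tested, of which 51.1% were lower in mean. Of all genes, 7.59% were lower below an unadjusted p of 0.05 in edgeR, and DESeq2 called 1.3% as lower. For PU.1, 15 of 15 targets were lower (median −0.95), 9 below an unadjusted p of 0.05, with 0 called by edgeR and 4 by DESeq2. Lyz2, the myeloid lysozyme, had 152 ± 43.9 against 67.8 ± 12.01 CPM, Cybb, the catalytic subunit of the phagocyte oxidase, 35.2 ± 14.2 against 14.5 ± 2.62 CPM, Msr1, a scavenger receptor, 29.3 ± 11.7 against 12.7 ± 1.53 CPM, and Btk, a kinase of B cell and myeloid receptors, 2.74 ± 1.06 against 0.889 ± 0.187 CPM. The list holds macrophage genes by nature, and Csf1r is also among the macrophage markers. Reads of Lyz2 can be shared with its close copy Lyz1.

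LXR targets were lower in 10 of 14 cases (median −0.28), 7 below an unadjusted p of 0.05, with 0 called by edgeR and 3 by DESeq2. Those 3 were Lpl, lipoprotein lipase (111 ± 69.4 against 18.5 ± 5.29 CPM, −2.59 ± 0.48), Cd5l, a secreted macrophage protein that is also a Kupffer cell marker (172 ± 99.95 against 45.9 ± 3.08 CPM, −1.91 ± 0.50), and Mertk, a receptor for dying cells (36.7 ± 6.66 against 21.2 ± 4.71 CPM, −0.79 ± 0.20). Arl4c, a small GTPase, had 5.48 ± 0.115 against 2.89 ± 1.22 CPM. All 4 have macrophage expression, and the adjusted p values in edgeR ran from 0.217 to 0.294. The level of Nr1h3 itself overlapped between the genotypes, as given above.

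Of 13 targets of IRF5 and IRF8, 7 passed the filter on low counts; 6 of them were lower (median −1.04), 2 below an unadjusted p of 0.05, and 0 were called by edgeR or DESeq2. The median was −0.58 without wild-type 3 and −0.67 without wild-type 1. Il1b had 4.38 ± 2.45 against 1.57 ± 0.279 CPM (−1.47 ± 0.42) and Tnf 0.912 ± 0.323 against 0.275 ± 0.124 CPM (−1.66 ± 0.54), both cytokine genes with separate groups, while Klf4 and Batf3 overlapped. Tnf rested on few counts, 22, 15 and 11 in wild-type 1, 2 and 3 and 2, 7 and 5 in knockout 1, 2 and 3 (adjusted p = 0.277 in edgeR). Of 7 MAF targets, 6 were tested and all 6 were lower (median −0.72), 5 below an unadjusted p of 0.05, with 0 called by edgeR and 1, C1qc, by DESeq2. The complement genes C1qa (78.3 ± 28.6 against 43.2 ± 4.06 CPM), C1qb (79.4 ± 32.9 against 41.7 ± 1.17 CPM) and C1qc (82.2 ± 35.5 against 39.7 ± 2.88 CPM) belong to the macrophage markers too, and all 3 overlapped between genotypes. Stab1, a scavenger receptor shared with sinusoidal endothelium, had 63.7 ± 11.2 against 46.9 ± 5.52 CPM (−0.44 ± 0.16, adjusted p = 0.305 in edgeR).

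Signals that maintain liver macrophages were close to all genes as a list: 13 of 24 tested genes were lower (median −0.07, and 0.06 without wild-type 1). Of these genes, 0 were called by edgeR or DESeq2. Below an unadjusted p of 0.05 lay 3, all lower, beside 7.59% of all genes in that direction. These 3 were Tgfb1 (18.6 ± 2.36 against 11.3 ± 2.11 CPM, −0.72 ± 0.18), the CSF1 receptor gene Csf1r (80.4 ± 34.4 against 39.1 ± 6.14 CPM, −1.04 ± 0.34), and Csf2rb, the shared beta chain of the GM-CSF receptor (16.0 ± 8.47 against 8.23 ± 1.09 CPM, −0.96 ± 0.35). The inhibitory SMAD gene Smad6 followed at 17.3 ± 1.91 against 14.0 ± 2.16 CPM. Exon overlap with Hmgxb3 on the opposite strand makes Csf1r uncertain in part.

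Markers of the other cell types that can hold these factors moved to different degrees, and their part in the level of each factor was not tested. Summed levels did not overlap, with the knockout below, for Kupffer cell (8 genes, 479 to 969 against 368 to 431 CPM), monocyte (9 genes, 18.2 to 26.0 against 12.7 to 13.9 CPM), dendritic cell (10 genes, 19.0 to 23.6 against 12.1 to 17.5 CPM) and cholangiocyte markers (7 genes, 13.4 to 17.2 against 8.82 to 11.1 CPM). They overlapped for neutrophil (10 genes, 6.53 to 10.4 against 3.22 to 7.17 CPM), T and NK cell (10 genes, 4.46 to 9.86 against 2.92 to 9.07 CPM), B and plasma cell (7 genes, 10.7 to 258 against 20.6 to 230 CPM), sinusoidal endothelial (11 genes, 262 to 578 against 330 to 474 CPM), stellate and fibroblast (12 genes, 690 to 854 against 666 to 732 CPM) and erythroid markers (5 genes, 60.7 to 296 against 117 to 160 CPM). The stellate and fibroblast sum is carried by Dcn and Ecm1. Of its 12 genes 3 were lower below an unadjusted p of 0.05, beside 7.59% of all genes. DESeq2 called 1 as lower, beside 1.3% of all genes. That was the collagen gene Col3a1 (75.7 ± 38.3 against 27.3 ± 12.8 CPM, adjusted p = 0.277 in edgeR and 0.0157 in DESeq2). Col3a1 and the growth factor receptor gene Pdgfrb had separate groups with the knockout below. Single markers had separate groups, with the knockout below, for 4 of 8 Kupffer cell and 2 of 7 monocyte genes tested. For dendritic cell genes these were 2 of 6 and for cholangiocyte genes 0 of 5, beside 9.42% of all genes. Sox9, the largest part of the cholangiocyte sum, overlapped (5.35 to 12.5 against 4.31 to 7.57 CPM). Markers with no more than 3 counts in any library numbered 3 for neutrophils and 1 each for monocytes and cholangiocytes. The Kupffer cell lectin gene Clec4f stood at 163, 70.3 and 141 CPM in the wild-type livers, beside 77.5, 77.9 and 87.6 CPM in the knockout, so that wild-type 2 was the lowest of all 6. Clec4f was among the Kupffer cell markers that overlapped, while the median log2 fold change of the 8 was −1.3 (−0.555 without wild-type 1). The largest part of the Kupffer cell sum was Slc40a1 (243 to 319 against 187 to 238 CPM).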

How the data were processed

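The authors deposited whole-number read counts for each gene and mouse, not normalised. Build GRCm38.p6 and the tools featureCounts 1.5.0-p3, StringTie 1.3.3b and HISAT2 2.0.5 appear in the submitters' processing notes. Strand, annotation release and multi-mapped reads: how counting treated them was not given in the sources used here. Symbols, positions and exon lengths came from GENCODE M21 (GRCm38), which matched 54495 of 54682 rows; 150 rows with no gene name, 0.273% to 0.509% of a library, were left out. Groups and mouse numbers came from the sample titles. The edgeR, DESeq2 and limma tests set the genotype difference against the spread between these mice.

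In R 4.3.3, edgeR 4.0.16 tested genotype over all 6 libraries (filterByExpr, TMM, robust quasi-likelihood F test, Benjamini-Hochberg over 14145 genes, threshold 0.05); common biological coefficient of variation 0.237. Alternatives were DESeq2 1.42.0, limma 3.58.1 (voom), RLE scaling, other filters, mouse number as a block, each library left out and edgeR's older quasi-likelihood fit. The choice between the newer and older fit was made after seeing the data, to match earlier processing of these counts. On simulated counts of 13955 genes, 39% of 2-fold and 100% of 4-fold changes were recovered, and 7 of 146 calls were false. These percentages hold for the simulation only, and recovery in the measured counts was not tested. In the measured counts 2 genes passed in edgeR. Lpl (log2 fold change −2.59) and Chil3 (−3.39) did not pass (adjusted p = 0.217 each in edgeR). A count of 0 allows up to 3 counts, 0.155 to 0.194 CPM, for counting error only. Profiles used log2(CPM + 0.5). Named genes were the 8 factors, the 4 smallest unadjusted p values of each list of factors, targets or niche signals and the 2 nearest profiles of each factor with mean log2 CPM of at least 1. Madd, Clec4f, Slc40a1, Sox9, Dcn, Ecm1, Col3a1, Pdgfrb, Stab2, Kdr and the genes naming marker lists were added after values were seen. The 8 factors and all lists were chosen with earlier results of these data known. Some genes that this rule names are not reported here.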

Additional observations from a re-analysis of the deposited data

How the results depend on the processing

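Of the 8 factors, 7 kept the direction of their log2 fold change under all 13 alternatives; Maf was the exception, at 0.0239 without wild-type replicate 1 and 0.00552 without knockout replicate 3 (lowest −0.348, without knockout replicate 1). In the edgeR fit, 0 factors and 2 genes passed the threshold. DESeq2 called 1 factor, Spi1 (−1.32, adjusted p = 0.0168), and 283 genes; limma-voom called 0 genes, the older quasi-likelihood fit 1, and no low-count filter 6. Leaving out 1 library gave 0 to 2 factors and 0 to 151 genes; the highest values came without wild-type replicate 2, where Spi1 (−1.64) and Irf5 (−0.943) passed. Factors with an unadjusted p under 0.05 numbered 3 without wild-type replicate 1 or without knockout replicate 3, 6 without wild-type replicate 2, and 5 with all libraries. With all libraries 12.8% of all genes had such a p in edgeR, in either direction. That share was not computed with 1 library left out. With mouse number as a replicate block 1 gene and 0 factors passed. Deviations of same-numbered mice correlated at −0.0286, −0.0405 and −0.00731, and those of differently numbered mice at −0.0497 to 0.0786. The labels state no pairing, and correlations over all genes cannot exclude a pairing that touches few genes. The ratios of 2 factors to the macrophage markers changed sign: that of Irf8 was −0.0145 with Kupffer cell markers as denominator and −0.019 to 0.336 with 1 library left out, and that of Runx1 was −0.391 to 0.0558 with 1 library left out, with 0.0531 without wild-type replicate 1. The cause of these shifts was not tested. Runx1, with 15 to 80 counts, had the lowest depth of the 8.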
